A study of Mus musculus with 21 samples.

Results

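The 40 genes described here encode the machinery of G2 and mitosis: the mitotic kinases and cyclin A2, the spindle checkpoint, the kinetochore, the spindle motors and bundling proteins, the cytokinesis apparatus and the condensing chromosomes. They were chosen by name, with earlier results of these data known. All 40 were found in the deposited table of 56980 genes and passed the filter on low counts that left 18192 genes for testing. The samples were cumulus-oocyte complexes from ovaries of WT mice, in which cumulus cells, the granulosa cells nearest the oocyte, enclose it. They matured in vitro in medium that held epidermal growth factor and 5% fetal bovine serum. PCI complexes received 10 µM of a proprotein convertase inhibitor for 4, 8 or 12 h. CTL complexes received its solvent, DMSO, for the same times. START complexes were taken at 0 h, untreated. Each of the 7 groups had 3 libraries that the labels call biological replicates, 21 in all. The sources used here do not give strain, age, the number of complexes in a library or whether replicates came from separate animals. The p-values therefore judge a difference against the spread between these libraries, whatever its origin.

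These genes serve both cell types of the complex. Cumulus cells divide while the follicle grows and leave the cell cycle after the ovulatory signal, which epidermal growth factor stands in for in culture. The oocyte waits in prophase of the first meiotic division with stored mRNA, stops transcribing as it completes growth, and then resumes meiosis with the same spindle, kinetochore and checkpoint proteins that mitosis uses. In dividing somatic cells the transcription of these genes peaks late in the cycle through promoter elements known as CHR and CCAAT boxes, with FOXM1 among the factors involved.

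The promoters of 32 of the 40 genes were found in RefSeq's annotation of GRCm38.p6, as windows from 250 bases before the transcription start to 50 after it. The 32 genes had 35 windows, and a gene was counted once if any of its windows held the motif. A CHR (TTTGAA or TTCGAA, on either strand) stood in 27 of these 32 genes (84.4%), against 21.7% of all 27025 genes of the table that had a window. CCAAT, on either strand, stood in 24 of 32 (75%) against 41.1%, and both elements in 23 of 32 (71.9%) against 8.61%. The letters of both motifs can overlap, and such matches were counted for each. Windows of 76 other mitosis genes held a CHR in 57.9%, CCAAT in 69.7% and both in 44.7%. Those of 24 genes of DNA replication held a CHR in 16.7%, CCAAT in 66.7% and both in 16.7%. A match of letters is a description of these windows and not evidence of binding. The 100 bases before the start are shown for 7 genes whose windows held both elements. These genes come from both patterns of change described further on. The first 4 were higher and the last 3 lower in CTL complexes at 8 h than at 4 h. The bases are written 5′ to 3′ along the gene, with CHR and CCAAT in capitals on either strand.
Cdc20 (chr4:118437344-118437443, minus strand): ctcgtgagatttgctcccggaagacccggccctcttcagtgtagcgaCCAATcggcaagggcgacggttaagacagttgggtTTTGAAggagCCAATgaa
Kif11 (chr19:37376282-37376381, plus strand): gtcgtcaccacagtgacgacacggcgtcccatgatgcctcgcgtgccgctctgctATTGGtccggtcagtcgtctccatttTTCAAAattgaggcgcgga
Hmmr (chr11:40733438-40733537, minus strand): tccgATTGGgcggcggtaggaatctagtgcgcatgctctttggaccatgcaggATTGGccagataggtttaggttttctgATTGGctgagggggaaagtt
Cdca3 (chr6:124830076-124830175, plus strand): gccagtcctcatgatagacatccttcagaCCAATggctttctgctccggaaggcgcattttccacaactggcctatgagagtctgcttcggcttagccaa
Ttk (chr9:83834589-83834688, plus strand): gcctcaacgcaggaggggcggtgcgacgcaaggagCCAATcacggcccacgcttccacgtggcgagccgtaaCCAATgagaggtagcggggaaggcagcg
Aurka (chr2:172370571-172370670, minus strand): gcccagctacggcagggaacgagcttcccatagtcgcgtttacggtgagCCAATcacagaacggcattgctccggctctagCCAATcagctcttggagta
Bub1 (chr2:127831860-127831959, minus strand): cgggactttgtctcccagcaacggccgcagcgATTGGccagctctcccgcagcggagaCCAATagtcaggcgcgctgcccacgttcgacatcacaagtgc
In Cdc20 and Kif11 the CHR lies in the bases shown. In Hmmr, Cdca3, Ttk, Aurka and Bub1 it lies past the start, at base 9, 31, 8, 33 and 15 after it, and Cdca3 has another CCAAT that runs over the start. Of the genes called higher in CTL at 8 h than at 4 h, all 4 with a window held both elements. Of those called lower 3 of 4 did, and the remaining gene, Nusap1, held neither element and is not shown.

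Libraries held 19458618 to 37491828 counts. Counts are given as CPM, which are counts scaled to a common library size with TMM factors; comparisons between genes are made per kilobase of exon. A gene was called higher or lower where edgeR's quasi-likelihood test, two-sided, gave a Benjamini-Hochberg adjusted p under 0.05 over the 18192 genes. Log2 fold changes are given ± SE. All 20 oocyte markers and all 10 cumulus markers passed the filter. The oocyte markers summed to 3427 to 22248 CPM and the cumulus markers to 2053 to 24839 CPM. Markers of theca, stroma, endothelium, leukocytes and red blood cells each summed to at most 106 CPM in any library. START and PCI 4 h libraries spread most in their oocyte markers, at 21598, 13656 and 5239 CPM in START and 9573, 22248 and 6138 CPM in PCI at 4 h.

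Before culture the genes summed to 7687 to 9094 CPM per library. Per kilobase, Bub1b, the checkpoint protein BUBR1, had the highest START level at 240 CPM per kb, followed by Cdc20, the activator of the anaphase-promoting complex, at 143 CPM per kb. Hmmr, the receptor for hyaluronan that also works as a spindle factor, had the lowest at 7.25 CPM per kb.

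Mitotic genes were lower in control complexes after culture than before it. At 4 h 23 of the 40 were lower in CTL than in START, where 15.3% of all tested genes were. At 8 h 23 were lower (20.6% of all genes) and at 12 h 33 were (26% of all genes). No member was called higher at any time by edgeR or DESeq2, and none was higher at an unadjusted p under 0.05, while 16.2%, 20.7% and 25.1% of all genes were called higher. The members' median log2 fold changes were -0.59, -0.62 and -1.03 at 4, 8 and 12 h, beside -0.05, -0.08 and -0.06 over all genes. Without CTL 4 h replicate 1 the 4 h median was -0.38, beside 0.12 over all genes. These 3 comparisons share the START libraries. A library holds whole complexes, so fewer cells of a type and less RNA per cell cannot be told apart. The libraries select poly(A) RNA, so tail length and RNA amount cannot be told apart either.

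**Figure D1:**
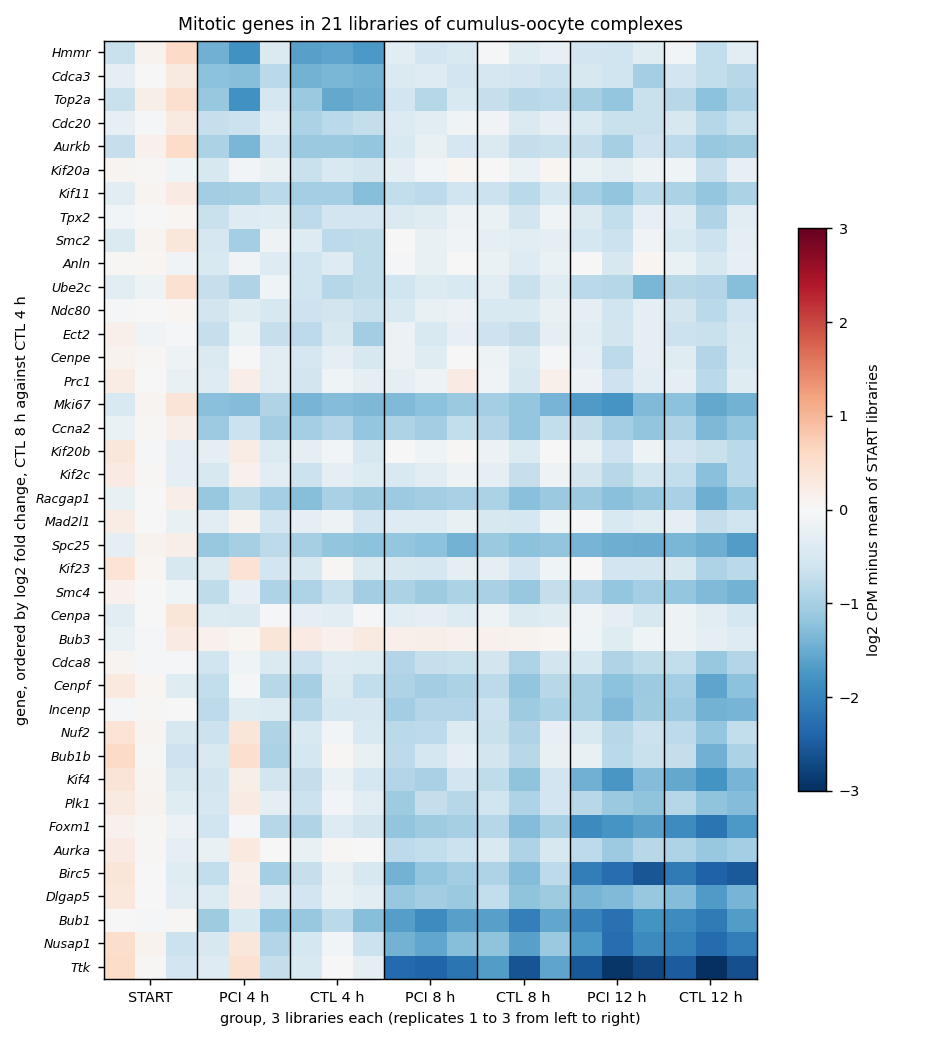
Log2 CPM of the 40 genes (rows) in 21 libraries (columns, 3 per group), each minus the mean of the START libraries; blue is lower than START and red higher, on a scale of ±3. Genes are ordered by the change in CTL complexes at 8 h against 4 h: Hmmr and Cdca3 at the top are lowest at 4 h in CTL, and Ttk and Nusap1 at the bottom are lowest at 12 h.

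Of the 40 genes 16 were lower at all 3 control times: Aurkb, Bub1, Ccna2, Cdca3, Cdca8, Cenpf, Ect2, Foxm1, Incenp, Kif11, Mki67, Ndc80, Racgap1, Smc4, Spc25 and Top2a. Another 7 were called lower at 12 h alone: Bub1b, Cenpe, Kif20b, Kif23, Kif2c, Mad2l1 and Nuf2. Anln, Hmmr, Kif20a and Smc2 were called lower at 4 h but not at 12 h. Bub3, Cenpa and Prc1 were called at no time. Calls shared between times were not counted over all genes, so these counts do not set the members apart from other genes. Calls at 4 h that were lost when 1 library was left out were Anln, Cdca8, Cenpf, Foxm1, Incenp, Kif20a and Tpx2 without CTL 4 h replicate 1, which left 16 called. Others were Smc2 without CTL 4 h replicate 2 or 3 or START replicate 3, Ube2c and Cdca8 without START replicate 3, and Cdca8, Cenpf and Foxm1 without START replicate 1 (adjusted p from 0.053 to 0.274 for these). At 8 h 17 were called without CTL 8 h replicate 2, where Aurkb, Ect2, Kif4, Ndc80, Plk1 and Top2a were lost, and at 12 h 28 without CTL 12 h replicate 2.

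Among the mitotic kinases and cyclin A2, all 3 genes were lower at 12 h. Ccna2, cyclin A2, drives the passage through S phase and into mitosis. It had 121.7, 89.28 and 101.8 CPM in CTL at 12 h, against 197.5, 232.6 and 256.5 CPM in START. The groups did not overlap, and the log2 fold change was -1.13 ± 0.17 (adjusted p = 2.22e-05), after -1.03 ± 0.17 at 4 h (adjusted p = 9.24e-05). Ccna2 overlaps Exosc9 on the opposite strand, which held 24.3% as many counts. Plk1, the polo kinase of mitotic entry, and Aurka, the aurora kinase of spindle poles, were not called at 4 h. Aurka had 178.5, 211 and 204.4 CPM in CTL at 4 h, against 244.9, 210.8 and 172.6 CPM in START, and the CTL libraries lay within the range of START. At 12 h Aurka had 109, 93.6 and 102.1 CPM in CTL, all below START (-1.04 ± 0.16, adjusted p = 2.81e-05), and Plk1 was lower by a like amount (-1.14 ± 0.21, adjusted p = 0.000181).

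The spindle checkpoint, which holds anaphase until every chromosome is attached, contained the member with the largest change. Ttk, the kinase MPS1 that starts checkpoint signalling, had 350.7, 244 and 160.5 CPM in START, then 173, 238.4 and 195.2 CPM in CTL at 4 h, 75.07, 39.58 and 80.23 CPM at 8 h and 42.21, 29.32 and 38.54 CPM at 12 h. The 4 h libraries lay within the range of START, and every library at 8 and 12 h lay below both. At 12 h Ttk was 6.86-fold lower than in START (-2.78 ± 0.32, adjusted p = 1.02e-06). Bub1, the kinase that brings other checkpoint proteins to the kinetochore, was lower already at 4 h, at 105.5, 132.1 and 95.49 CPM in CTL against 230.7, 225 and 236.7 CPM in START (-1.06 ± 0.19, adjusted p = 0.000216). It reached 61.9, 52.81 and 72.35 CPM at 12 h (-1.89 ± 0.19, adjusted p = 2.64e-07). Bub1b had 589.6, 359.3 and 501.8 CPM in CTL at 12 h, against 1453, 992.5 and 635.8 CPM in START. START spread widely, and the groups did not overlap (-1.09 ± 0.33, adjusted p = 0.0102), but the call was lost without START replicate 1 (-0.71, adjusted p = 0.101) or CTL 12 h replicate 2 (-0.93, adjusted p = 0.0572). Mad2l1, the inhibitor MAD2, was also called (-0.54 ± 0.18, adjusted p = 0.0204), but had an adjusted p of 0.14 without START replicate 1, 0.0939 without CTL 12 h replicate 2 and 0.0997 without CTL 12 h replicate 3. Bub3, their common partner, was not called at 12 h (-0.28 ± 0.13, adjusted p = 0.0653). Its position overlaps Fgfr2 on the opposite strand, which held 54.5% as many counts, and the sources used here do not state the strand setting of the counting.

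The partners of the anaphase-promoting complex, the ubiquitin ligase that ends mitosis, were lowest at 4 h or 12 h. Cdc20 had 223.4, 258.8 and 319.6 CPM in START, then 136.8, 151.6 and 162.3 CPM in CTL at 4 h, 243.8, 197 and 219.3 CPM at 8 h and 188.3, 145.4 and 167.2 CPM at 12 h. The 4 h libraries lay below START without overlap (-0.83 ± 0.15, adjusted p = 0.000256), while the 8 h libraries overlapped START (-0.28 ± 0.15, adjusted p = 0.146). Cdca3, a protein of mitotic entry that this ligase marks for destruction, was at 29.73, 30.23 and 29.29 CPM in CTL at 4 h, against 65.47, 78.35 and 95.82 CPM in START, and at 56, 53.42 and 50.11 CPM in CTL at 8 h. It was lower at all times, most at 4 h (-1.42 ± 0.17, adjusted p = 1.68e-06). Its call at 8 h (-0.59 ± 0.16, adjusted p = 0.00761) was lost without START replicate 3 (-0.36, adjusted p = 0.095). Ube2c, the ubiquitin-conjugating enzyme of the complex, was lower at 4 h (-0.77 ± 0.22, adjusted p = 0.00897) and at 12 h (-1.03 ± 0.22, adjusted p = 0.000675), but not called at 8 h (-0.49 ± 0.22, adjusted p = 0.0744). Cdc20 overlaps Elovl1 on the opposite strand, with 63.9% as many counts.

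All 4 subunits of the chromosomal passenger complex, which corrects faulty attachments and then directs cytokinesis, were lower at 8 and 12 h, yet they differed in course. Birc5, the survivin subunit, had 125.8, 174.3 and 145.7 CPM in CTL at 4 h, against 257.8, 203.3 and 157.1 CPM in START, which overlapped. It had 106.5, 81.37 and 116.7 CPM at 8 h and 46.09, 37.61 and 34.95 CPM at 12 h, where it was 5.21-fold lower than in START (-2.38 ± 0.26, adjusted p = 6.57e-07). Aurkb, the kinase of the complex, was lowest at 4 h, with 30.18, 29.81 and 28.98 CPM in CTL against 40.51, 71.5 and 94.66 CPM in START (-1.22 ± 0.24, adjusted p = 0.000462). Its call at 8 h was lost without CTL 8 h replicate 2 or 3 and without START replicate 2 or 3 (adjusted p = 0.08, 0.0611, 0.0594 and 0.283). Incenp, the scaffold, and Cdca8, borealin, were lower at each time, at -1.29 ± 0.15 (adjusted p = 1.51e-06) and -0.90 ± 0.15 (adjusted p = 7.14e-05) at 12 h.

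At the centromere and kinetochore 5 of 6 genes were lower at 12 h. Spc25, a subunit of the NDC80 complex that grips microtubules, was lower at every time, with 24.8, 23.14 and 20.02 CPM in CTL at 12 h against 52.48, 69.5 and 72.96 CPM in START (-1.52 ± 0.15, adjusted p = 1.95e-07). Ndc80 itself, its partner, had 52.91, 43.8 and 51.38 CPM in CTL at 12 h against 74.71, 76.06 and 80.43 CPM in START (-0.64 ± 0.13, adjusted p = 0.000346). Nuf2, of the same complex, was called at 12 h (-0.93 ± 0.28, adjusted p = 0.00884), but not without START replicate 1 (-0.66, adjusted p = 0.0764). Cenpf, a kinetochore protein that also accumulates in G2, was lower (-1.29 ± 0.21, adjusted p = 6.08e-05), and Cenpe, the kinetochore motor, was at -0.56 ± 0.17 (adjusted p = 0.0116). The Cenpe call was lost without START replicate 1 or CTL 12 h replicate 2 (adjusted p = 0.0582 and 0.0757). Cenpa, the histone that marks centromeres, had 69.22, 60.99 and 53.61 CPM in CTL at 12 h against 60.25, 76.32 and 98.61 CPM in START, which overlapped (-0.36 ± 0.17, adjusted p = 0.0886).

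Among the 6 mitotic kinesins, Kif11, the motor that pushes spindle poles apart, was lower at all times. It had 126, 167.5 and 189.8 CPM in START, then 78.94, 78.26 and 65.35 CPM in CTL at 4 h, 100.9, 89.97 and 109.5 CPM at 8 h and 82.12, 71.47 and 81.64 CPM at 12 h. All control libraries in culture lay below START (-1.12 ± 0.15 at 4 h, adjusted p = 8.98e-06). Kif4, a motor bound to chromosome arms, was not called at 4 h and was lower at 12 h (-1.60 ± 0.24, adjusted p = 2.19e-05), as was Kif2c, which takes microtubules apart at centromeres (-0.94 ± 0.19, adjusted p = 0.000506). Kif23, a motor of the central spindle, and Kif20b were called at 12 h (-0.77 ± 0.26 and -0.70 ± 0.19, adjusted p = 0.0177 and 0.004). Without START replicate 1 the calls of Kif23 and Kif20b were lost (adjusted p = 0.148 and 0.0514), and that of Kif23 also without CTL 12 h replicate 2 or 3 (adjusted p = 0.0744 and 0.0772). Kif20a, a motor of cytokinesis, was called at 4 h alone (-0.56 ± 0.15, adjusted p = 0.00556). Kif20a overlaps Cdc23 on the opposite strand, which held 95.7% as many counts, and Kif4 overlaps Pdzd11, with 41.3%.

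Factors that assemble and bundle the spindle differed from each other in their course. Hmmr had 23.13, 39.65 and 55.33 CPM in START, then 11.98, 12.23 and 11.12 CPM in CTL at 4 h, 36.21, 28.77 and 31.29 CPM at 8 h and 34.83, 22.26 and 29.26 CPM at 12 h. The 4 h libraries were all below START (-1.74 ± 0.31, adjusted p = 0.000172), and those of 8 and 12 h lay in or near its range (-0.29 ± 0.30 and -0.45 ± 0.30, adjusted p = 0.45 and 0.214). Nusap1, a microtubule bundler, ran the other way: 358.4, 270.5 and 160.9 CPM in START, then 173.2, 236.1 and 160.6 CPM in CTL at 4 h, 107.6, 80.8 and 115.5 CPM at 8 h and 61.55, 50.2 and 58.82 CPM at 12 h. It was not called at 4 h (-0.47 ± 0.28, adjusted p = 0.236) and was 4.63-fold lower at 12 h (-2.21 ± 0.29, adjusted p = 5.42e-06). Dlgap5, a spindle stabiliser also called HURP, was likewise not called at 4 h and lower at 12 h (-1.48 ± 0.19, adjusted p = 3.97e-06). Tpx2, the activator of aurora A, was lower at 4 h (-0.64 ± 0.17, adjusted p = 0.00545) and at 12 h (-0.52 ± 0.17, adjusted p = 0.0137). Its 12 h call was lost without CTL 12 h replicate 2 or START replicate 3 (adjusted p = 0.0822 and 0.0698). Prc1, which cross-links the central spindle, was not called (-0.47 ± 0.21 at 12 h, adjusted p = 0.0701).

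Of the cytokinesis genes Racgap1, a regulator of the RhoA switch at the cell equator, had 218.7, 254 and 293.2 CPM in START, then 104.5, 128.9 and 120.9 CPM in CTL at 4 h, 130.9, 107 and 117 CPM at 8 h and 128.3, 91.36 and 112.7 CPM at 12 h. It was lower by as much at 4 h (-1.11 ± 0.15, adjusted p = 7.68e-06) as at 8 h (-1.11 ± 0.15, adjusted p = 7.58e-06), and the 3 culture times overlapped each other. Ect2, the exchange factor for RhoA, was lower at all times (-0.76 ± 0.16 at 4 h, adjusted p = 0.00119). Its call at 8 h (-0.53 ± 0.16, adjusted p = 0.0137) was lost without START replicate 1 or CTL 8 h replicate 1 or 2 (adjusted p = 0.0918, 0.0613 and 0.0834). Anln, the ring scaffold anillin, was lower at 4 h (-0.58 ± 0.15, adjusted p = 0.00542) and not called at 12 h (-0.30 ± 0.15, adjusted p = 0.0974).

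Among genes of chromosome structure, Top2a, the topoisomerase that untangles sister DNA, had 273.7, 490 and 599.3 CPM in START, then 200.9, 148.6 and 155.5 CPM in CTL at 4 h, 267.6, 241.8 and 252.2 CPM at 8 h and 243.3, 182.9 and 223.9 CPM at 12 h. It was lower at all times (-1.43 ± 0.28 at 4 h, adjusted p = 0.000443). Its 8 h call (-0.84 ± 0.27, adjusted p = 0.0192) was lost without START replicate 2 or 3 or CTL 8 h replicate 2 (adjusted p = 0.0524, 0.148 and 0.0581). Mki67, which coats mitotic chromosomes and is used as a marker of proliferation, stayed near its 4 h level, at 46.79, 49.78 and 48.55 CPM in CTL at 4 h, 60.36, 55.34 and 46.61 CPM at 8 h and 52.03, 42.2 and 46.21 CPM at 12 h, against 89.2, 129.4 and 161 CPM in START (-1.39 ± 0.19 at 4 h, adjusted p = 8.97e-06). Smc4, a condensin subunit, was lower at each time (-1.29 ± 0.17 at 12 h, adjusted p = 4.9e-06). Smc2, its partner, was called at 4 h alone (-0.67 ± 0.21, adjusted p = 0.0197). Foxm1, the transcription factor of the G2 programme, had 179, 167.1 and 145.5 CPM in START, then 87.4, 124.4 and 111.2 CPM in CTL at 4 h, 90.42, 66.54 and 81.15 CPM at 8 h and 44.17, 35.4 and 49.67 CPM at 12 h. It was 3.80-fold lower at 12 h than in START (-1.93 ± 0.20, adjusted p = 2.38e-07).

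**Figure D2:**
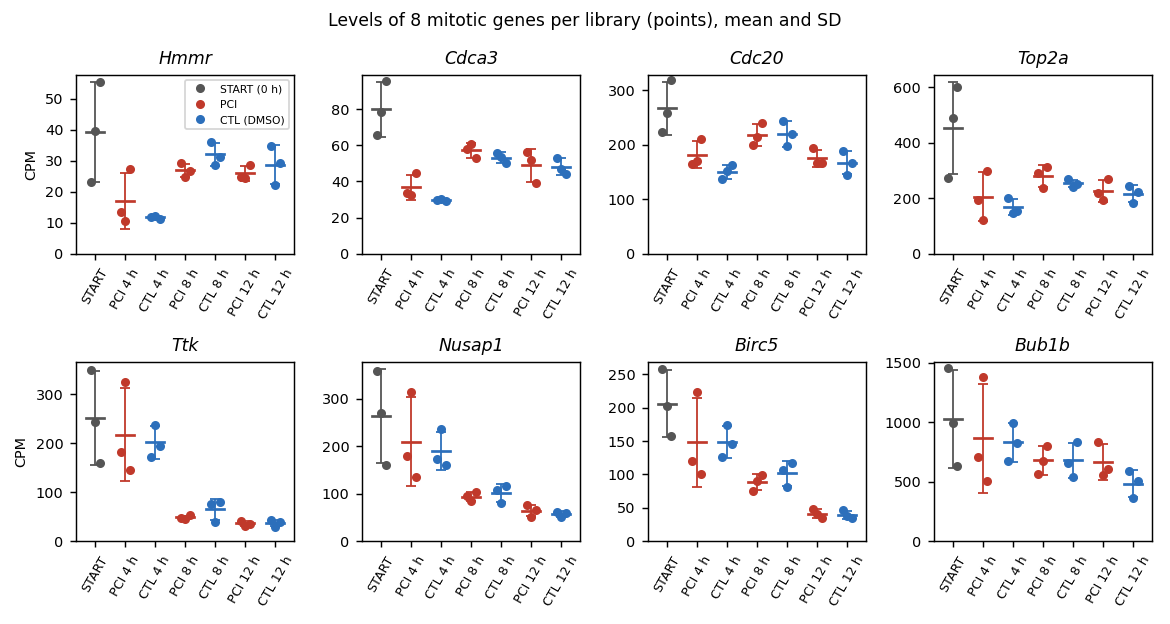
CPM (linear axis) of 8 genes in each of the 21 libraries (points), with the mean and SD of the 3 libraries of each group. In CTL, Hmmr, Cdca3, Cdc20 and Top2a are lowest at 4 h. Ttk, Nusap1 and Birc5 are lowest at 12 h, and Bub1b has its widest spread in START and in PCI at 4 h.

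From 4 to 8 h in CTL complexes members were called in both directions, about as often as all genes were. Of the 40, 5 rose, where 12.1% of all genes did. They were Hmmr (1.45 ± 0.30, adjusted p = 0.00261), Cdca3 (0.84 ± 0.16, adjusted p = 0.00161), Cdc20 (0.55 ± 0.15, adjusted p = 0.014), Kif20a (0.51 ± 0.15, adjusted p = 0.0173) and Kif11 (0.43 ± 0.15, adjusted p = 0.0425). Another 5 of the 40 fell, where 11.1% of all genes did. They were Ttk (-1.64 ± 0.31, adjusted p = 0.0011), Nusap1 (-0.91 ± 0.28, adjusted p = 0.0262), Bub1 (-0.67 ± 0.19, adjusted p = 0.016), Dlgap5 (-0.64 ± 0.19, adjusted p = 0.0199) and Aurka (-0.54 ± 0.16, adjusted p = 0.0199). Hmmr, Cdca3 and Ttk kept their calls in all 6 leave-outs. The others lost theirs in 1 or more of them, and the count of rises was 2 without CTL 4 h replicate 1 and 3 without CTL 8 h replicate 3. The count of falls was 1 without CTL 4 h replicate 2 or CTL 8 h replicate 2 and 3 without CTL 4 h replicate 3. From 8 to 12 h in CTL complexes none rose (4.63% of all genes did), by edgeR, by DESeq2 or at an unadjusted p under 0.05. Birc5 (-1.36 ± 0.26, adjusted p = 0.00324) and Foxm1 (-0.88 ± 0.19, adjusted p = 0.00822) fell, where 4.17% of all genes did. All 40 log2 fold changes were below 0, beside 9446 of the 18192 over all genes. The members' median was -0.34, beside -0.02 over all genes. By edgeR's test 17 of the 40 had an unadjusted p under 0.05, beside 4221 of all genes. Foxm1 lost its call without CTL 8 h replicate 1 or CTL 12 h replicate 2 (adjusted p = 0.0559 and 0.0572), and 5 members fell without CTL 8 h replicate 2.

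The same steps were measured in PCI complexes, in libraries of their own. From 4 to 8 h Cdca3 alone of the 40 rose (0.63 ± 0.16, adjusted p = 0.0082; 12.3% of all genes did), and 9 members fell (15.2% of all genes did). Aurka, Bub1, Dlgap5 and Ttk kept their calls in all 6 leave-outs. The falls were Ttk (-2.17 ± 0.31, adjusted p = 0.000133), Nusap1 (-1.16 ± 0.28, adjusted p = 0.00551), Dlgap5 (-0.92 ± 0.19, adjusted p = 0.0016), Bub1, Aurka, Birc5, Plk1, Foxm1 and Incenp. All 5 genes that fell in CTL were among these 9, which is 100% of the CTL list and 55.6% of the PCI list. The sign was the same in both arms for 37 of the 40 genes. Agreement over all genes was not counted, so these values do not set the members apart from other genes. Ttk had 182.1, 326.2 and 145.6 CPM in PCI at 4 h and 173, 238.4 and 195.2 CPM in CTL at 4 h. It had 47.58, 45.09 and 52.57 CPM in PCI at 8 h and 75.07, 39.58 and 80.23 CPM in CTL at 8 h. The Hmmr step was 0.66 ± 0.30 in PCI (adjusted p = 0.112) against 1.45 ± 0.30 in CTL, and its PCI 4 h libraries stood at 13.56, 10.47 and 27.22 CPM against the CTL libraries at 11.98, 12.23 and 11.12 CPM. The PCI step minus the CTL step was -0.79 ± 0.42 (adjusted p = 0.918). Without PCI 4 h replicate 2, the library richest in oocyte markers, the PCI step held 0 rises and 4 falls (Aurka, Bub1, Dlgap5 and Ttk), without PCI 4 h replicate 3 it held 5 rises, and without PCI 8 h replicate 1 it held 5 falls. From 8 to 12 h in PCI no member rose (1.38% of all genes did), by edgeR, by DESeq2 or at an unadjusted p under 0.05. Birc5 fell (-1.10 ± 0.25, adjusted p = 0.0262; 0.995% of all genes fell). The Birc5 call was lost in 5 of 6 leave-outs: without PCI 8 h replicate 1, 2 or 3 (adjusted p = 0.0546, 0.0686 and 0.131) and without PCI 12 h replicate 2 or 3 (adjusted p = 0.113 and 0.145). In this step 35 of 40 genes had the same sign in both arms, and agreement over all genes was again not counted.

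The oocyte markers also fell after 4 h, so genes that fell then would tend to correlate with them over all libraries. The summed cumulus markers fell then too, from a mean of 19897 CPM in CTL at 4 h to 7360 and 3400 CPM at 8 and 12 h. In PCI their mean went from 13686 CPM to 5337 and 2408 CPM at the same times, beside 8960 CPM in START. An oocyte score, the mean log2 CPM of the 20 markers, averaged 8.27, 7.10 and 6.29 in PCI at 4, 8 and 12 h and 8.39, 7.53 and 5.77 in CTL at the same times, beside 8.37 in START. Over the 21 libraries, which share groups and time, Pearson's r with this score was 0.8 or more for 12 of the 40 genes, among them Birc5 (0.95), Nusap1 (0.94), Aurka (0.92), Plk1 (0.92), Kif4 (0.92), Ttk (0.91) and Foxm1 (0.91). It was -0.46 for Hmmr, -0.19 for Cdca3 and -0.23 for Smc2. With Top2a, in turn, r was 0.8 or more for Smc2 (0.94), Aurkb (0.93), Kif11 (0.88), Hmmr (0.84), Cdc20 (0.83) and Cdca3 (0.83), while Top2a itself stood at -0.12 with the oocyte score. Taken as deviations from the group means, r with the oocyte score ran from -0.80 (Smc2) to 0.93 (Birc5). In these deviations 8 genes stood at 0.8 or more and 7 at -0.5 or less, and Top2a stood at -0.77. Among genes that fell from 4 to 8 h in either arm, it was 0.23 for Incenp and 0.44 for Bub1. The others of these ran from 0.71 (Foxm1) to 0.93 (Birc5). Values as high also stood in members not called in that step, which ran from -0.80 (Smc2) to 0.93 (Bub1b). The SD of the score was 1.00 in START and 0.91 in PCI at 4 h, beside 0.27 to 0.47 in the other groups. The libraries of START and of PCI at 4 h therefore weigh most in these deviations. In START, Bub1b and Ttk were highest in replicate 1, which had the most oocyte markers, and Top2a, Hmmr and Aurkb were highest in replicate 3, which had the fewest. These values are descriptions, and the shares of the 2 cell types in them were not measured.

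**Figure D3:**
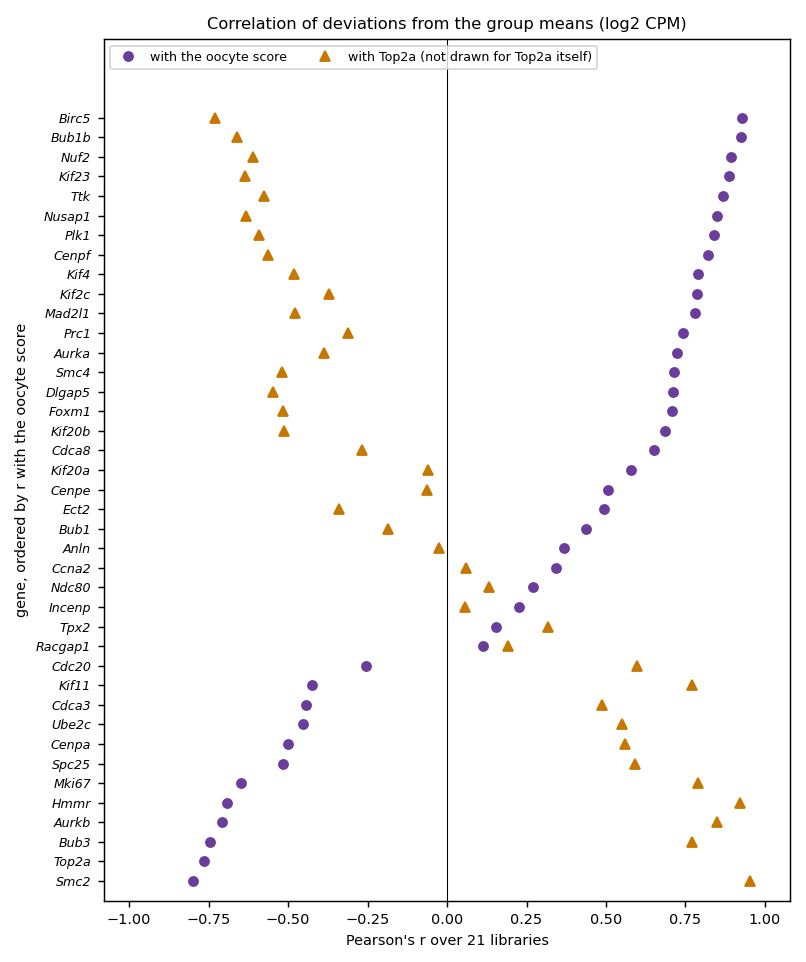
Pearson's r over 21 libraries (horizontal axis) between each gene's deviations from its group means in log2 CPM and those of the oocyte score (circles) or of Top2a (triangles), with genes ordered by r with the oocyte score. Genes from Smc2 to Cdc20 at the bottom run with Top2a and against the oocyte score; genes from Birc5 to Ttk at the top do the reverse.

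With the oocyte score as a covariate in the fit, all 23 members called lower at 4 h and all 23 called at 8 h remained, and 32 and 27 were called in all. At 12 h 23 were called lower, 19 of them from the 33 of the fit without the score. The 14 lost were Aurka, Bub1b, Cdca8, Cenpe, Cenpf, Ect2, Kif20b, Kif23, Kif2c, Kif4, Mad2l1, Nuf2, Plk1 and Tpx2, and Bub1b was then higher in CTL at 12 h than in START (0.72, adjusted p = 0.0217). Of all 18192 genes, the fit with the score called 3376, 3691 and 2963 lower at 4, 8 and 12 h. The fit without the score called 2784, 3740 and 4727 lower, so calls were also lost over all genes at 12 h. The score lay between 5.46 and 5.98 in CTL at 12 h and between 7.29 and 9.28 in START, so the score and time in culture cannot be told apart at 12 h.

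No member was called different between PCI and CTL complexes at any time. At 4 h 0 of 40 were called, where 0.132% of all genes were, at 8 h 0 of 40 (3.67% of all genes) and at 12 h 0 of 40 (1.98% of all genes), by edgeR and by DESeq2 alike. At an unadjusted p under 0.05, 1 member differed at 4 h and none at 8 or 12 h, beside 908, 2598 and 1956 of the 18192 genes. The 1 was Kif20a at 4 h, with 90.61, 118.6 and 108.6 CPM in PCI against 78.76, 91.49 and 86.44 CPM in CTL (0.31 ± 0.15, adjusted p = 0.99).

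The 95% intervals of the log2 fold change lay within ±1 for 39 of the 40 genes at each time, and within ±0.5 for 11, 24 and 16 genes at 4, 8 and 12 h. The exceptions to ±1 were Hmmr at 4 h, whose interval reached 1.17, Ttk at 8 h, which reached -1.05, and Bub1b at 12 h, which reached 1.15. Bub1b had 836, 554.6 and 606.8 CPM in PCI at 12 h against 589.6, 359.3 and 501.8 CPM in CTL, and the libraries overlapped (0.46 ± 0.33, adjusted p = 0.769). Ttk had its lowest PCI value relative to CTL at 8 h (-0.42 ± 0.30, adjusted p = 0.606). Mki67 had 38.01, 35.93 and 49.24 CPM in PCI at 12 h against 52.03, 42.2 and 46.21 CPM in CTL (-0.19 ± 0.18, adjusted p = 0.857), and Top2a had 217.5, 193.1 and 269.4 CPM in PCI against 243.3, 182.9 and 223.9 CPM in CTL (0.06 ± 0.27, adjusted p = 0.982). Libraries of both genes overlapped between the arms.

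Although none was called, 37 of the 40 log2 fold changes were above 0 at 4 h, beside 10420 of the 18192 over all genes. The median was 0.16, beside 0.04 over all genes. The oocyte markers were above 0 in 13 of 20 at 4 h and in 20 of 20 at 12 h (median 0.50, none called). With the oocyte score as a covariate the members' medians were 0.15, 0.05 and 0.09 at 4, 8 and 12 h. The markers' part in these values was not tested beyond that fit. At 8 h 18 members were above 0 (median -0.03), beside 8597 of all genes (median -0.02). At 12 h 35 members were (median 0.12), beside 9779 of all genes (median 0.03). With 1 library left out the 4 h median ran from 0.03 (without PCI 4 h replicate 2) to 0.25 (without CTL 4 h replicate 2 or PCI 4 h replicate 1), and was 0.06 without CTL 4 h replicate 1. The 12 h median was 0.03 without PCI 12 h replicate 1, 0.04 without CTL 12 h replicate 2 and 0.17 without PCI 12 h replicate 2. PCI 4 h replicate 2 had 22248 CPM of oocyte markers, beside 9573 and 6138 CPM in the other PCI 4 h libraries and 9318, 15139 and 11147 CPM in CTL at 4 h. In the test of whether the difference between arms itself changed with time no member was called, where 0.0605% of all genes were, and none had an unadjusted p under 0.05, beside 1242 of all genes. Hmmr came nearest, with an adjusted p of 0.924 by edgeR's quasi-likelihood test.

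**Figure D4:**
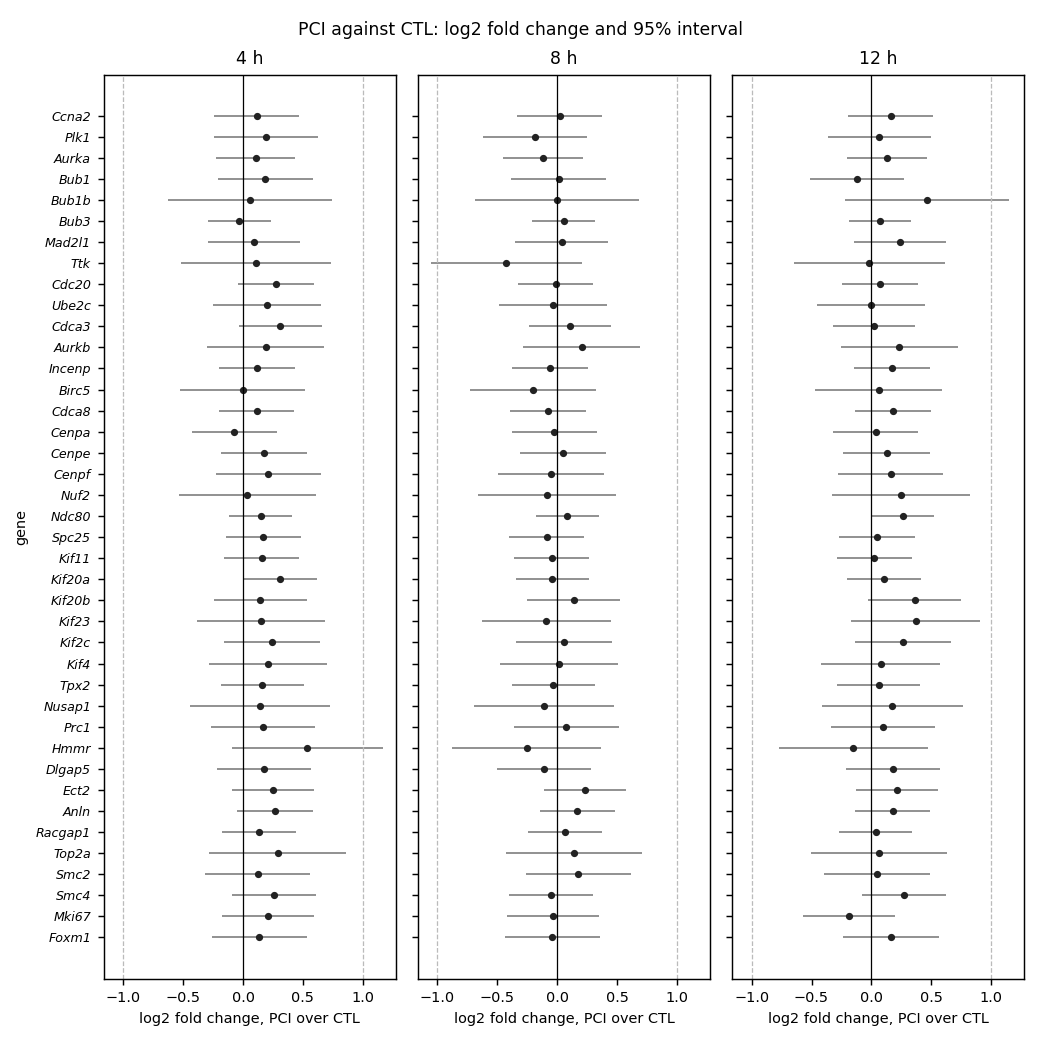
Log2 fold change of PCI over CTL (points) with its 95% interval (lines) for the 40 genes at 4, 8 and 12 h, each from 3 against 3 libraries. Dashed lines mark a change of 1; intervals pass them for Hmmr at 4 h, Ttk at 8 h and Bub1b at 12 h.

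Another 93 genes of mitosis, all tested, followed a like course. In CTL 33, 50 and 72 of them were lower than START at 4, 8 and 12 h, where 15.3%, 20.6% and 26% of all genes were. Of the 93, 4, 6 and 3 were higher, where 16.2%, 20.7% and 25.1% of all genes were. The medians of the 93 were -0.43, -0.63 and -0.94, beside -0.05, -0.08 and -0.06 over all genes. The falls with the smallest p at 12 h were Cdca2, a phosphatase anchor on chromosomes (35.4 CPM in CTL at 12 h against 96.0 CPM in START, -1.44 ± 0.13, adjusted p = 4.79e-08), and Tubb4b, a beta-tubulin (183.9 CPM in CTL against 574.3 CPM in START, -1.64 ± 0.16, adjusted p = 1.02e-07). Ska3, of the SKA complex that tracks microtubule ends (-1.70 ± 0.18, adjusted p = 2.64e-07), and Kntc1, of the complex that brings dynein to kinetochores (-1.61 ± 0.17, adjusted p = 4e-07), came next. The 3 that rose by 12 h were Cenpm (123.5 CPM in CTL at 12 h against 44.6 CPM in START, 1.47 ± 0.31, adjusted p = 0.000677), Mis18a (0.83 ± 0.19, adjusted p = 0.00133) and Cenpt (0.56 ± 0.13, adjusted p = 0.00196), which encode proteins of the centromere. All 3 calls were lost with the oocyte score as a covariate, at 0.49 for Cenpm (adjusted p = 0.471), 0.84 for Mis18a (adjusted p = 0.0553) and 0.38 for Cenpt (adjusted p = 0.184). Cenpt was also lost without the filter on low counts (0.54). Of 30 genes of DNA replication and G1/S, 19, 23 and 27 were lower at 4, 8 and 12 h and 1, 1 and 0 higher. Their medians were -0.73, -0.89 and -1.27. The shares and medians over all genes in these comparisons are those given above.

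Between PCI and CTL complexes 1 of the 93 was called at 8 h, where 3.67% of all genes were, and 1 at 12 h, where 1.98% were. Mis18a, which prepares the centromere for the histone CENP-A, had 168.3, 123.4 and 137.3 CPM in PCI at 8 h against 81.22, 84.75 and 83.52 CPM in CTL. It was higher without overlap (0.78 ± 0.19, adjusted p = 0.0231), though the adjusted p was 0.182 without PCI 8 h replicate 1 and 0.131, 0.0766 and 0.09 without CTL 8 h replicate 1, 2 or 3. Hjurp, the chaperone that carries CENP-A, had 102.4, 67.48 and 94.01 CPM in PCI at 12 h against 205.8, 140 and 148.7 CPM in CTL. It was lower without overlap (-0.91 ± 0.17, adjusted p = 0.00769), with an adjusted p of at most 0.0464 in the 6 leave-outs, and was at -0.47 ± 0.17 at 8 h (adjusted p = 0.17). Hjurp at 12 h was named after its value was seen. Cenpa itself had 71.12, 62.25 and 55.15 CPM in PCI at 12 h against 69.22, 60.99 and 53.61 CPM in CTL, which overlapped. None of the replication genes was called between the arms at any time, by edgeR's test, with 0, 2 and 1 at an unadjusted p under 0.05 at 4, 8 and 12 h.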

How the data were processed

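RNA of 21 samples was sequenced from poly(A)-selected stranded libraries, per the labels' protocols. The authors deposited raw counts per gene for 56980 genes. The submitters' processing notes name cutadapt, STAR and HTSeq as tools and mm39 as the build. Neither their versions nor the annotation or strand setting is stated in the sources used here. Depth was 19458618 to 37491828 counts per sample, and counting error is small beside the spread between replicates. Genes passing edgeR's filter on low counts (18192) were scaled by TMM and fitted with edgeR 4.0.16 (R 4.3.3) by the robust quasi-likelihood method, with 1 mean for each of 7 groups and 14 residual degrees of freedom. P-values were two-sided and Benjamini-Hochberg adjusted over all 18192 genes. Log2 CPM used a prior count of 2. The SE is the log2 fold change divided by the square root of its F statistic, and intervals are 95% intervals. Alternatives were DESeq2 1.42.0, its size factors, library size alone, no filter, only the groups compared, a replicate block, the oocyte score as a covariate and each library left out. The scripts were tested on simulated data. Samples were grouped by their labels, and all were used.

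The 40 members and the other lists were chosen with earlier results of these data known. All 40 members could be named. Of the other mitosis genes, up to 4 with the smallest p in each direction were named for CTL 12 h against START and for PCI against CTL at 8 h. Exon lengths were used for levels per kilobase. Promoter windows came from RefSeq (GRCm38.p6), and no coordinates were converted between builds.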

Additional observations from a re-analysis of the deposited data

How the results depend on the processing

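Of the comparisons between PCI and CTL complexes, and of the change of that difference with time, the member counts stayed at 0 under every alternative run. The counts of members lower than START in CTL stayed within 1.5 times the reported ones under the alternatives that kept all libraries. Library size alone as scaling moved the median of all genes by over 0.1 at 4 h and 12 h, to -0.17 and -0.16. With the oocyte score as a covariate, 1 member was higher in CTL at 12 h than in START (Bub1b, 0.72), and Mad2l1 (0.23), Nuf2 (0.50) and Kif23 (0.55) changed sign there. From 4 to 8 h that fit gave 3 falls in CTL, and 2 rises and 5 falls in PCI. Over all 18192 genes it gave 2114 falls in CTL, and 1892 rises and 1987 falls in PCI. From 8 to 12 h that fit gave 2 rises and 10 falls in CTL, and 3 rises and 7 falls in PCI. Over all genes it gave 1486 rises and 1439 falls in CTL, and 1443 rises and 1237 falls in PCI. Bub1b changed sign in it in the CTL step from 8 to 12 h (0.69) and in the PCI steps from 4 to 8 h (0.56) and 8 to 12 h (0.53), and Nuf2 in the CTL step from 8 to 12 h (0.65). The cause was not tested. Falls in CTL from 8 to 12 h numbered 4 with library size alone, 8 with only the groups compared and 5 with DESeq2. With only the groups compared, fewer samples gave 0 rises and 5 falls in PCI from 4 to 8 h, and 3 falls from 8 to 12 h, where DESeq2 gave 3.

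Leaving libraries out gave 16 to 23, 17 to 26 and 28 to 36 members lower than START in CTL at 4, 8 and 12 h, and 0 to 1 higher at 4 h. From 4 to 8 h it gave 2 to 7 rises and 1 to 7 falls in CTL, and 0 to 5 rises and 4 to 10 falls in PCI. From 8 to 12 h it gave 1 to 10 falls in CTL and 0 to 4 in PCI. These ranges include a fit, chosen after seeing the data, without both START replicate 1 and PCI 4 h replicate 2, the libraries with the most oocyte markers in their groups; it gave 10 falls in CTL and 4 in PCI from 8 to 12 h, and 5 falls in PCI from 4 to 8 h.

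Same-numbered PCI and CTL libraries had correlations of their deviations from 0.0424 to 0.524, with 8 of 9 over 0.1. Of 18 libraries 16 correlated best with their own number, so libraries of a number resembled each other. The labels number the replicates 1 to 3 but do not say what a shared number means. The main fit does not use the numbers, and the replicate block does. With the replicate block 34 members were lower in CTL at 12 h than in START and 8 fell in PCI from 4 to 8 h; the other counts were as reported. With 3 libraries a group, the median SE of the members' log2 fold changes was 0.185, which limits the differences that could be called.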
